A study of Homo sapiens with 6 samples.

Results

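U2OS 2-6-3 cells given the 3 plasmids of a light-controlled transcription activator were compared with untransfected cells of the same line, gene by gene. All entries of the deposited sample-against-untransfected comparison were used, their accessions were matched to gene symbols, and the entry with the highest mean signal on a primary chromosome stood for each gene. This gave 26850 genes out of 40029 deposited entries, of which 15567 genes carry an adjusted p-value, and 2 further entries belong to the integrated reporter. RNA sequencing of total RNA was done on 6 libraries, 2 for each of 3 groups. The "sample" libraries came from cells transiently transfected with mCherry-MCP together with CIBN-TetR and PHR-YFP-VP16, and the untransfected libraries from cells given none of these. The mock libraries came from cells given TetR-RFP and YFP, and their values are set beside the others where they bear on a result. Both transfected groups received their plasmids with Roche Xtreme gene. All 3 groups carry the reporter, grew in medium with doxycycline-free serum and stood in white light over night. Uptake of the plasmids per cell is not in the labels, so each library averages cells with and without them.

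U2OS is an established human osteosarcoma line, and 2-6-3 is a clone of it with a tandem array of tet operators upstream of a gene for a cyan fluorescent protein with a peroxisome signal, whose transcript carries MS2 stem-loops. TetR binds the operators, and in light the cryptochrome domain PHR binds CIBN and brings the viral activation domain VP16 to the array, while MCP marks the MS2 loops of the new RNA. Cells given plasmid DNA and a transfection reagent are known to answer through stress and inflammatory signalling, in which NF-kB and AP-1 factors bind promoters of cytokine, survival and feedback genes. The contrast described here holds the reagent, the DNA, the activator and the light-driven reporter at once, and these cannot be told apart within it.

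The libraries held between 9579278 and 54177551 reads, and the shallowest was 1 of the 2 sample libraries. The deeper library of each group is called a and the other b. Each value per library below is a normalized count, the read count recovered from the deposited means and divided by a size factor. Sample library b stands apart from its partner. Over 12492 genes with a mean of at least 50, the log2 difference between the sample libraries had an SD of 0.420, against 0.168 for the untransfected and 0.209 for the mock libraries. In all, 380 genes lay over 2-fold apart between the sample libraries, 272 of them higher in b, against 32 and 40 genes in the other groups. RPS16, a ribosomal protein gene, read 515 and 5398 in sample a and b, and the transcription factor gene NFIC read 275 and 1841. MTRNR2L1, a pseudogene that resembles mitochondrial RNA, read 2.35 and 5040 in sample a and b and at most 1.43 in the other 4 libraries. MIR6087, a microRNA gene, read 354 in sample b and 0 in the other 5. Small structural RNAs took between 13.5% and 14.6% of gene reads in the sample libraries and up to 16.8% in the untransfected. The osteoblast label of the line fits in part. SPARC, a bone matrix glycoprotein gene, read from 20892 to 32303 in these 4 libraries, whereas IBSP, DLX5 and TWIST1 had no read and SP7, an osteoblast transcription factor gene, had 1 in all. In bulk RNA, fewer cells with a transcript and less of it per cell cannot be told apart.

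Promoters of genes that the results turn on are shown first, for 4 of the 10 motifs that were searched. They are from RefSeq (GRCh38.p14), each with 170 bases before and 30 after the annotated gene start, read 5′ to 3′ on the gene's strand. Capitals mark only matches of the motif named for that gene. TNFAIP3 also holds the E-box CACGTG, which is printed in lower case. Both strands were searched. TNFAIP3 (chr6:137867089-137867288, plus strand), which encodes the NF-kB inhibitor A20, and CCL20 (chr2:227813672-227813871, plus strand), a chemokine gene, hold the NF-kB motif, in which GGG and TTTCC stand 2 bases of any kind apart, or its reverse complement.
TNFAIP3: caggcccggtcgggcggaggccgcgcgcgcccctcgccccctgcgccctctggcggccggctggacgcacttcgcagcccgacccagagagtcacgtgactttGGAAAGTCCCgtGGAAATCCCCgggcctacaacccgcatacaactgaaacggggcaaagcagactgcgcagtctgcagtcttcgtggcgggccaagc
CCL20: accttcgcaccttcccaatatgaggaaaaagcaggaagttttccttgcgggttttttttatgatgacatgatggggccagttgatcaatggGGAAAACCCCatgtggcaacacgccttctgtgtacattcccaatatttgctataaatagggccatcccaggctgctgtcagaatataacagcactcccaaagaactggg

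IL11 (chr19:55370434-55370633, minus strand) and IL1A (chr2:112784464-112784663, minus strand), both cytokine genes, hold the AP-1 motif TGACTCA or its reverse complement.
IL11: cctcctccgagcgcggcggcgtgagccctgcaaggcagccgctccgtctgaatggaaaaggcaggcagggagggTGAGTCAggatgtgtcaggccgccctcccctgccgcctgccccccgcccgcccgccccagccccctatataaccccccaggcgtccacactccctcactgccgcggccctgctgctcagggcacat
IL1A: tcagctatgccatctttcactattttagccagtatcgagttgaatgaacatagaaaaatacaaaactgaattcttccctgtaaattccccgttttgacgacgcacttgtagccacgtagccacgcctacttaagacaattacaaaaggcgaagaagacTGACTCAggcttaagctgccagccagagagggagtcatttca

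PNO1 (chr2:68157718-68157917, plus strand) and RRP9 (chr3:51941875-51942074, minus strand), genes for factors of ribosome assembly, hold the E-box CACGTG, which MYC with its partner MAX is known to bind.
PNO1: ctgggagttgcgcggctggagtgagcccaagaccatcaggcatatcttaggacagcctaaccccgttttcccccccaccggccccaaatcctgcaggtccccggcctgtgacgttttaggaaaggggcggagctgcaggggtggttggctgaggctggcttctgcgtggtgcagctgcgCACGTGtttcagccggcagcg
RRP9: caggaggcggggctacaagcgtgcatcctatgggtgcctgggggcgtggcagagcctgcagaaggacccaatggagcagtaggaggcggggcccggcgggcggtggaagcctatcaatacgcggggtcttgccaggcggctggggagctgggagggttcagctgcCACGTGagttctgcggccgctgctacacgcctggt

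IFIT1 (chr10:89392453-89392652, plus strand) and IFI6 (chr1:27672163-27672362, minus strand), interferon-stimulated genes, hold the interferon response motif, in which TTTC occurs 2 times with 2 bases of any kind between, or its reverse complement.
IFIT1: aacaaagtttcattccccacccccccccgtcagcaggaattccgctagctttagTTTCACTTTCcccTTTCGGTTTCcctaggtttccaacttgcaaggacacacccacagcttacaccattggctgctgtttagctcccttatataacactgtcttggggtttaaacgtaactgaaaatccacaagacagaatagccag
IFI6: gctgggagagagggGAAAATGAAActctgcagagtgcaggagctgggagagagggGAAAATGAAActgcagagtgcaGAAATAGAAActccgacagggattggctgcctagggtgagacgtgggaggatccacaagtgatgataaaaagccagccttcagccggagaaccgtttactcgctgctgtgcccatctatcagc

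The question of the contrast was what the activator plasmids and their delivery change in these cells. In the authors' deposited table, 5801 of the 15567 tested genes (37.3%) differed at an adjusted p under 0.05 (DESeq2 Wald test), 3147 of them higher (20.2%) and 2654 lower (17.0%) in the sample libraries. Genes that differed by a log2 of 1 or more numbered 705 higher (4.53%) and 1148 lower (7.37%) in the authors' deposited table, whose fold changes are shrunk towards 0. Higher genes were 54.2% of those called. A limma-voom fit on the recovered counts called 50.9% of 14890 genes. With total counts in place of the median-based scaling it called 48.9%, of which 37.2% were higher, and the median gene moved to -0.13 on the log2 scale. With the upper quartile it called 50.6%, of which 43.6% were higher. Protein-coding genes were called more often than long noncoding RNA genes, 40.4% of 13769 against 17.6% of 1063, but the called share also followed the level, from 12.3% below a mean of 50 to 54.2% at 5000 or more. Values of the 2 groups did not overlap for 5800 of the 5801 called genes, and for 73.8% of all tested genes.

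**Figure D1:**
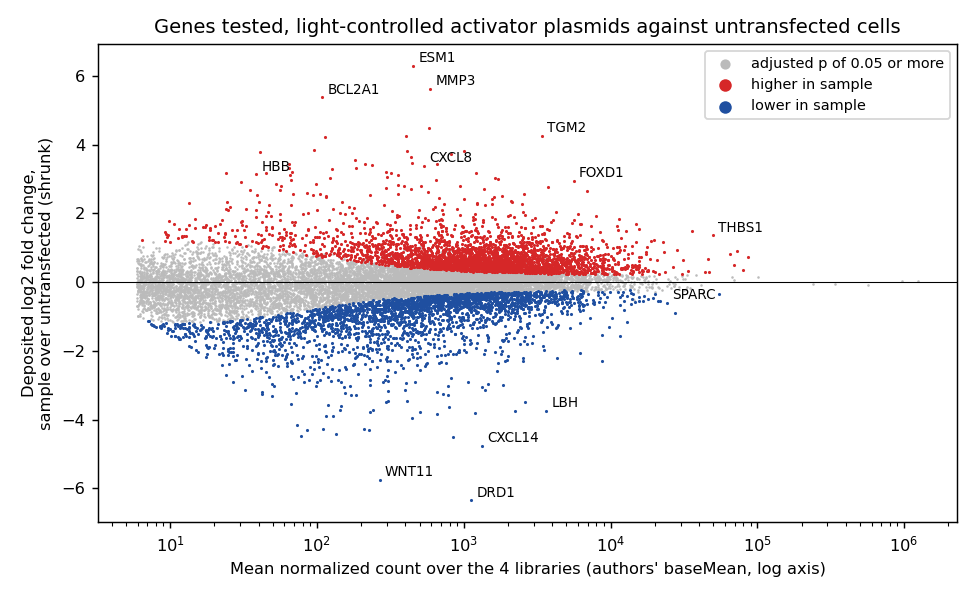
Each point is 1 of the 15567 tested genes, with its mean normalized count on a log axis and the deposited log2 fold change of sample over untransfected libraries. Red and blue points passed an adjusted p of 0.05, 3147 higher and 2654 lower, and grey points did not.

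The reporter was the sequence that set the sample libraries apart most. ECFP-SKL, the coding part of the reporter, read 28.6 and 26.4 in the untransfected and 24794 and 23754 in the sample libraries. MS2loops, its stem-loop part, read 84.5 and 57.7 in the untransfected and 5484 and 3512 in the sample libraries. In the mock libraries ECFP-SKL read 63.8 and 59.4 and MS2loops 147 and 115, so that the reporter was far higher in both sample libraries than in any of the other 4. The authors' deposited table lists 9.47 (log2) for ECFP-SKL and 5.07 for MS2loops over untransfected cells.

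Among the most raised genes were secreted and surface proteins of inflammation and of tissue remodelling. ESM1 (chr5:54977867-54985586), which encodes the proteoglycan endocan, read 8.45 and 5.7 in the untransfected and 1179 and 815 in the sample libraries. The authors' deposited table puts its log2 change at 6.30 ± 0.31 (SE, adjusted p = 1.38e-91, DESeq2). MMP3 (chr11:102835797-102843689), the matrix protease stromelysin, read 20.8 and 20.0 against 1407 and 1161, and rose by 5.62 ± 0.23 (log2, SE) in the authors' deposited table. Both genes were low in every untransfected and high in every sample library, which follows from their choice among the most raised genes. TGM2, a protein-crosslinking transglutaminase gene, read 360 and 334 against 6209 and 8112. FOXD1, a forkhead transcription factor gene, read 1303 and 1469 against 11039 and 11023. CD44, the hyaluronan receptor gene, read 1042 and 1021 against 6223 and 8433. The groups stood apart in all 3 of these, as in 73.8% of all tested genes. For TGM2, FOXD1 and CD44 the authors' deposited table lists log2 changes of 4.26, 2.96 and 2.76. PTX3 (a pentraxin of innate immunity), NLRP3 (an inflammasome sensor), CD274 (the immune checkpoint ligand PD-L1) and LCP1 (an actin bundler of blood cells) rose by 3.83, 3.64, 3.17 and 3.48 on the log2 scale in the authors' deposited table. Of blood cell markers, 3 of 5 tested members were higher (HBB, HBD and CD68) against 20.2% of all genes, and 2 did not pass the test. PTPRC, the leukocyte marker CD45 and 1 of these 2, read 13.0 and 9.98 against 3.91 and 4.12. The list sum rose from 55.9 and 54.2 to 243 and 264, of which HBB held 103 and 61.8 and HBD 43.0 and 41.2. CD3E, ALAS2 and HBA2 had no read. The globin genes HBB and HBD were high in the libraries in which the reporter was high, and whether their counts hold reads from its construct was not tested. The part of other cells in the LCP1 and NLRP3 values was not tested.

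Among the most lowered were receptors, secreted signals and transcription factors. DRD1 (chr5:175440672-175444160), the dopamine D1 receptor gene, read 2303 and 2599 in the untransfected and 21.9 and 16.5 in the sample libraries. At -6.35 ± 0.25 (log2, SE; adjusted p = 2.47e-136, DESeq2), it was the lowest called gene of a mean of 200 or more in the authors' deposited table. HTR2A, a serotonin receptor gene chosen after its values were seen, read 228 and 256 against 5.48 and 0. CXCL14, a chemokine gene, read 2800 and 2904 against 105 and 53.5, and ACKR3, which encodes a chemokine-scavenging receptor, read 917 and 937 against 52.4 and 45.3. In all 4 genes both sample libraries lay far below both untransfected libraries, which follows from their choice among the most lowered genes. The groups did not overlap in 73.8% of all tested genes. LBH, a transcription cofactor gene, read 7460 and 7488 against 512 and 572, and IGFBP5, which encodes an insulin-like growth factor binding protein, read 5061 and 5543 against 416 and 502. SOX2, the pluripotency factor gene, read 394 and 498 against 14.9 and 12.4, and TET1, a methylcytosine dioxygenase gene, read 771 and 919 against 60.2 and 78.2. The authors' deposited table lists log2 changes of -3.75 for LBH, -3.50 for IGFBP5, -4.27 for SOX2 and -3.46 for TET1. The long noncoding RNAs LINC02159 and MIAT fell by 4.31 and 3.01 on the log2 scale in the authors' deposited table.

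NF-kB subunits and inhibitors were higher as a group. In the authors' deposited table, 12 of 14 tested members were higher and none lower, against 20.2% and 17.0% of all genes, with a median log2 fold change of 0.94. TNFAIP3 read 114 and 99.8 in the untransfected and 712 and 655 in the sample libraries. RELB, a subunit of the noncanonical pathway, read 274 and 265 against 1314 and 1379, and NFKBIA, which encodes the inhibitor IkB-alpha, read 663 and 712 against 1214 and 1169. No sample library overlapped the untransfected range in these 3 genes, a trait shared by 73.8% of all tested genes. The authors' deposited table lists log2 changes of 2.57 for TNFAIP3, 2.26 for RELB and 0.78 for NFKBIA. REL and BCL3 did not pass the test; BCL3 read 42.2 and 156 in the 2 sample libraries, the higher value in b. Of TNF receptors and adaptors, 13 of 19 were higher and none lower, with a median of 0.73 in the authors' deposited table. TRAF1, an adaptor, read 39.0 and 34.9 against 751 and 955, and BIRC3, which encodes the ubiquitin ligase cIAP2, read 96.2 and 86.2 against 786 and 622. TNFRSF12A, the TWEAK receptor gene, already read 6780 and 6783 and reached 11028 and 10339.

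Chemokines and interleukins went both ways, with 8 of 17 tested members higher and 2 lower, against 20.2% and 17.0% of all genes, in the authors' deposited table. CXCL8 (chr4:73740506-73743716), the neutrophil chemokine, read 100 and 82.7 in the untransfected and 1304 and 869 in the sample libraries. IL11 read 159 and 149 against 1361 and 1206, and CCL20 read 9.1 and 9.27 against 158 and 74.1. IL1A read 13.0 and 3.56 against 183 and 94.7, while IL15, a lymphocyte growth factor gene, read 125 and 116 against 21.1 and 8.24. All 5 genes kept the groups apart, 4 upwards and IL15 downwards, and the groups also did not overlap in 73.8% of all tested genes. For them the authors' deposited table lists log2 changes of 3.39 for CXCL8, 2.98 for IL11, 2.80 for CCL20, 2.97 for IL1A and -2.17 for IL15.

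MYC and the ribosome assembly genes rose. MYC, a growth-promoting transcription factor gene, read 804 and 760 in the untransfected and 4135 and 5719 in the sample libraries, and rose by 2.58 ± 0.16 (log2, SE) in the authors' deposited table. All 28 ribosome biogenesis genes tested were higher in the authors' deposited table, with a median of 1.11, and all 28 were also called by limma-voom without sample library a and without sample library b, fits that called 42.4% and 54.8% of all genes. RRP12 (chr10:97356701-97401370), a factor of pre-ribosome export, read 1832 and 1846 against 7272 and 8017. PNO1 read 1243 and 1182 against 3424 and 3253, and RRP9 read 1709 and 1713 against 4755 and 4603. NCL, the gene of the abundant nucleolar protein nucleolin, read 8835 and 8881 against 16353 and 16458, and POLR1B, which encodes a subunit of RNA polymerase I, read 1899 and 1964 against 4152 and 4266. The rise reached from assembly factors to the polymerase that makes ribosomal RNA, and FBL, the fibrillarin gene, had the lowest value of the list, 0.44 on the log2 scale in the authors' deposited table. Of 21 of these genes with a promoter in the table, 10 (47.62%) held the E-box, against 9.93% of 12058 tested genes with a promoter.

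Chaperone genes were higher in 23 of 29 tested members and lower in 1 in the authors' deposited table, against 20.2% and 17.0% of all genes. Proteasome subunit genes were higher in 13 of 26 and lower in none, and the medians of these lists were 0.46 and 0.34. HSPA8, the constitutive HSC70 gene, read 55208 and 56077 against 102452 and 107946. PSMD2, a proteasome base subunit gene, read 12603 and 13335 against 28364 and 24606, and BAG3, a co-chaperone gene, read 397 and 382 against 883 and 1482. The heat-inducible HSPA1A, whose reads can be shared with its near copy HSPA1B, stood at 0.29 (log2) with an adjusted p of 0.0528 (DESeq2) in the authors' deposited table. HSPB1 read 1641 in sample a and 3603 in sample b around untransfected values of 2578 and 2715, so its sample libraries lay on both sides.

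**Figure D2:**
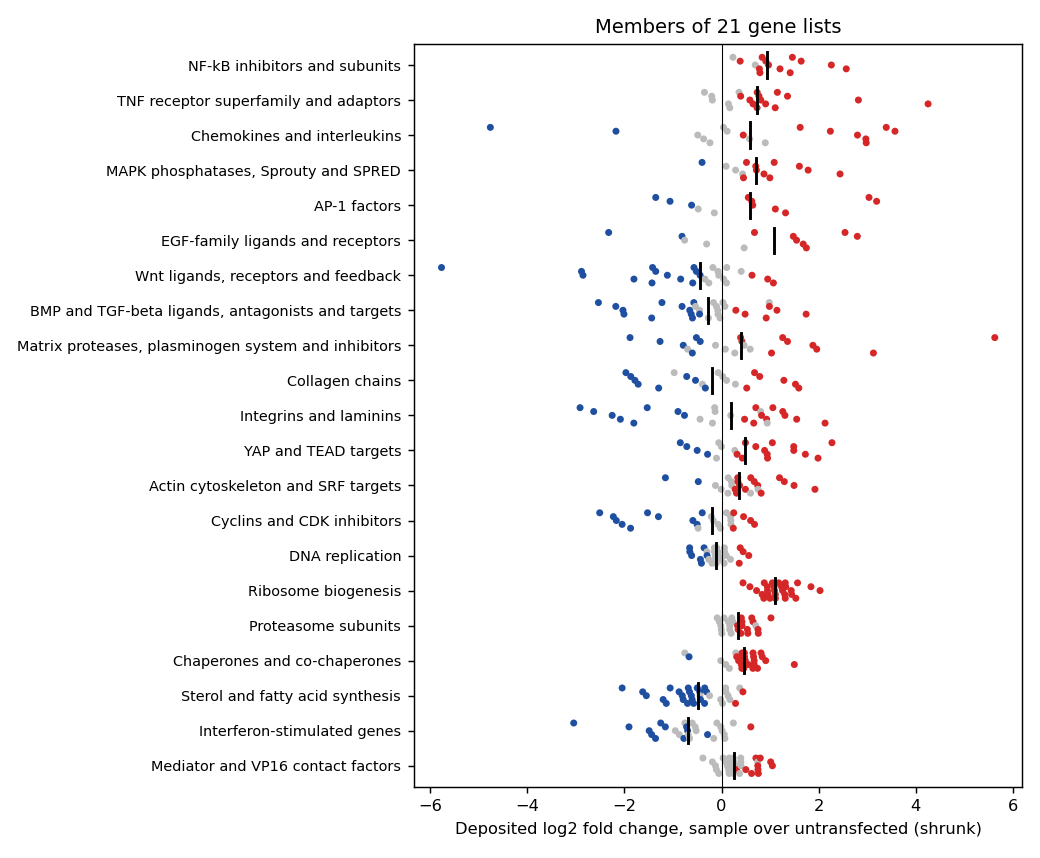
Each point is a tested member of 1 of 21 gene lists, at its deposited log2 fold change of sample over untransfected libraries, with red and blue for members called higher and lower, grey for the rest and a black bar at the list's median. All 28 ribosome biogenesis genes lie right of 0, while the median of sterol and fatty acid genes is -0.47 and that of interferon-stimulated genes -0.68.

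Feedback inhibitors of MAP kinase signalling were mostly higher, 10 of 14 with 1 lower in the authors' deposited table, against 20.2% and 17.0% of all genes. DUSP5, a nuclear ERK phosphatase gene, read 224 and 226 in the untransfected and 1209 and 1363 in the sample libraries. DUSP6, the cytoplasmic ERK phosphatase gene, was near the low end of the data with 14.9 and 9.27 against 15.6 and 20.6 and did not pass the test. AP-1 genes split, 7 of 12 higher and 3 lower, against the same shares of all genes. FOSL1, which encodes FRA1, read 46.8 and 49.2 against 361 and 852, and MAFF, a small MAF gene, read 374 and 383 against 3470 and 2973. FOS, the immediate early member, read 1083 and 989 against 429 and 338, and JUND read 2127 and 2336 against 956 and 1182. The authors' deposited table has FOSL1 and its relatives at log2 changes of 3.19 for FOSL1, 3.04 for MAFF, -1.35 for FOS and -1.06 for JUND, while JUN, with -0.15, did not pass the test.

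Growth factor ligands and their receptors moved in different directions. In the EGF family 7 of 12 tested members were higher and 2 lower in the authors' deposited table, where 20.2% of all genes were higher and 17.0% lower. AREG read 112 and 89.1 in the untransfected and 793 and 729 in the sample libraries, HBEGF read 638 and 575 against 2061 and 1915, and the receptor gene EGFR read 182 and 154 against 429 and 585. Of the other receptor genes, ERBB2 and ERBB3 fell: ERBB2 read 2095 and 2259 against 1213 and 1252, and ERBB3 read 192 and 175 against 27.4 and 28.8. ERBB4, with 24.7 and 12.1 against 3.91 and 8.24, did not pass the test. In the FGF, PDGF and VEGF list 7 of 21 were higher and 6 lower, against the same shares, in the authors' deposited table. FGF5 read 37.7 and 30.6 against 356 and 626, and MET, the hepatocyte growth factor receptor gene, read 1389 and 1449 against 4993 and 5098. PDGFB, a PDGF ligand gene, read 249 and 241 against 7.04 and 12.4, and its receptor genes fell too, PDGFRA from 792 and 818 to 104 and 65.9 and PDGFRB from 1280 and 1300 to 619 and 803. In log2 terms the authors' deposited table lists 3.42 for FGF5, 1.81 for MET, -3.89 for PDGFB, -2.95 for PDGFRA and -0.87 for PDGFRB.

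Wnt ligands, receptors and feedback genes were lower in 13 of 25 tested members and higher in 3, against 17.0% and 20.2% of all genes. Their median was -0.44 in the authors' deposited table. WNT11 (chr11:76186326-76206530) read 582 and 596 in the untransfected libraries and 3.91 and 0 in the sample libraries, which is 1732 reads against 5. The ratio of sample to untransfected was 0.00558, with an exact 95% interval of 0.00181 to 0.0131 that covers counting error only. AXIN2, a feedback target of the pathway, read 381 and 379 against 119 and 173, RNF43, a ligase that removes Wnt receptors, read 650 and 690 against 11.7 and 0, and the receptor gene FZD2 read 1062 and 1197 against 337 and 494. In contrast LEF1, a nuclear partner of beta-catenin, read 139 and 155 against 280 and 387. BMP and TGF-beta genes were lower in 12 of 29, against 17.0% of all genes, and higher in 6, a share near the 20.2% of all genes, in the authors' deposited table. BMP4 read 1809 and 1878 against 356 and 535, and its intracellular inhibitor SMAD6 read 318 and 358 against 39.9 and 94.7. TGFB1 read 889 in sample a and 2314 in sample b and did not pass the test. NOTCH3 and the Notch target HES1 fell by 2.13 and 1.10 on the log2 scale in the authors' deposited table, with 1 of 14 Notch genes higher (DLL3) and 3 lower, a called share of 28.6% under the 37.3% of all genes. DLL3 did not pass in the limma-voom fits without sample library a (adjusted p = 0.0837) and without untransfected library b (adjusted p = 0.0661).

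Genes of the matrix and of adhesion were called in both directions. Matrix proteases and plasminogen genes were higher in 9 of 21 and lower in 6, collagens higher in 6 of 20 and lower in 8, and integrins and laminins higher in 10 of 25 and lower in 8 in the authors' deposited table, where 20.2% of all genes were higher and 17.0% lower. PLAUR, the urokinase receptor gene, read 1452 and 1395 in the untransfected and 5621 and 5036 in the sample libraries, while the gelatinase gene MMP2 read 2086 and 2174 against 1031 and 1441. COL6A3 read 2199 and 2058 against 7208 and 5291, and COL5A2, a fibrillar collagen gene, read 2530 and 2419 against 673 and 523. COL1A1, the main bone collagen gene, read 7824 and 8117 against 6105 in sample a and 14774 in sample b, with sample a below and sample b above the untransfected libraries. LAMA5, a laminin chain gene, read 3476 and 2994 against 588 and 902, and the integrin gene ITGA2 read 231 and 259 against 1177 and 1058 whereas ITGB8 read 2090 and 2095 against 280 and 231. YAP and TEAD targets were higher in 13 of 21 and lower in 4, and actin and SRF targets higher in 14 of 24 and lower in 2 in the authors' deposited table. CCN2, the connective tissue growth factor gene, read 2479 and 2716 against 9262 and 11953, and TAGLN, the transgelin gene, read 3584 and 3747 against 13999 and 14173. ACTB, which is often used as a reference gene, read 67632 and 73151 against 97860 and 141660. TPM1, a tropomyosin gene, went the other way from 20024 and 19524 to 9416 and 8157.

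Of 24 cyclin, CDK, CDK inhibitor and E2F genes, 5 were higher and 10 lower in the authors' deposited table, a called share of 62.5% against 37.3% of all genes. Of 6 CDK inhibitors in that list, 5 fell, where 17.0% of all genes were lower. The lower genes also held CCNG2 and CCNG1, at -2.17 and -0.59 (log2). CDKN1B (chr12:12717270-12722383), the p27 gene, read 2812 and 2998 in the untransfected and 692 and 679 in the sample libraries. CDKN1C (p57) read 663 and 807 against 120 and 111, CDKN2B (p15) read 529 and 566 against 109 and 103, and CDKN2C (p18) read 1260 and 1341 against 364 and 305. The authors' deposited table lists -2.05 ± 0.13, -2.51 ± 0.22, -2.23 ± 0.23 and -1.87 ± 0.17 (log2, SE) for these 4 genes, in that order. CDKN1A, the p53 target p21, read 4555 and 4653 against 4990 and 5612 and did not pass the test. CCND1 and CCNE1, cyclins of G1 and of S phase entry, rose by 0.60 and 0.68 on the log2 scale in the authors' deposited table. The mitotic genes CCNB1 and CDK1 did not pass it, at -0.02 and -0.17, and CCNB2 fell by 0.40. DNA replication genes were called in 11 of 28, 4 higher and 7 lower, a share of 39.3% near the 37.3% of all genes. In limma-voom with total counts as library size 4 were higher and 15 lower, where 18.2% of all genes were higher and 30.7% lower.

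**Figure D3:**
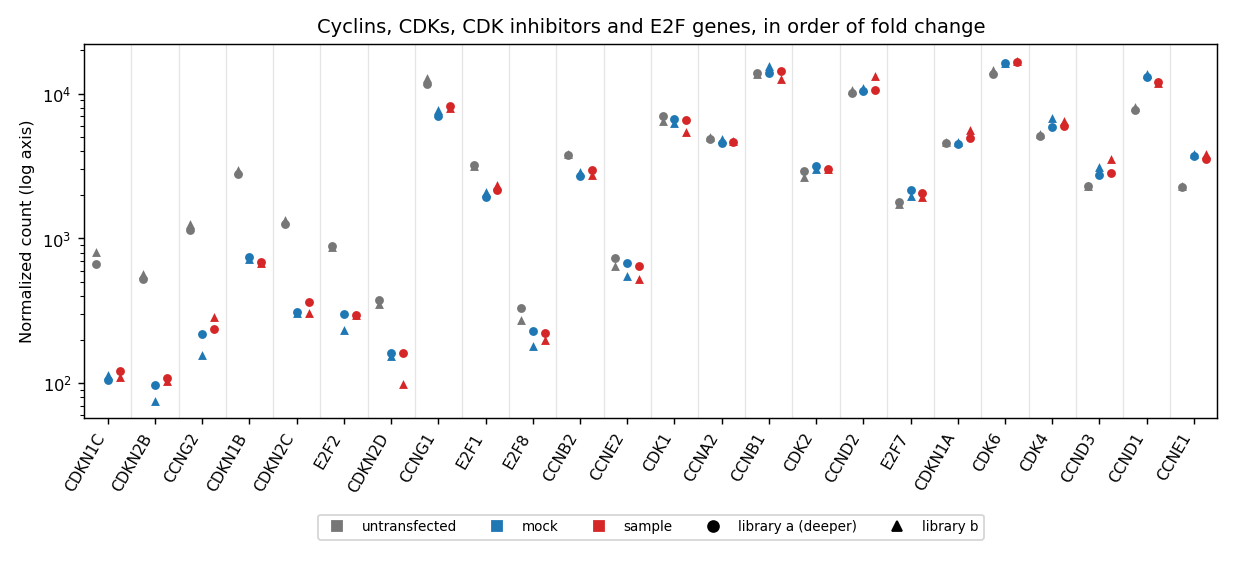
Normalized counts (log axis) of 24 cell cycle genes in each of the 6 libraries, circles for the deeper and triangles for the other library of a group, in order of the deposited log2 fold change of sample over untransfected. CDKN1C, CDKN2B, CCNG2, CDKN1B and CDKN2C lie lower in all sample and mock libraries than in the untransfected, and CDKN1A lies close in all 6.

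In the BCL2 family 9 of 18 were higher and 5 lower in the authors' deposited table, against 20.2% and 17.0% of all genes. BCL2A1 (chr15:79960890-79971301), a survival gene under NF-kB control, read 1.30 and 0.713 in the untransfected and 283 and 198 in the sample libraries. The ratio was 264, with an exact 95% interval of 89.8 to 1287 that rests on 3 reads in the untransfected libraries. MCL1, also a survival gene, read 6186 and 6527 against 10770 and 9199. The pro-death genes BCL2L11 (BIM) and BMF fell, from 632 and 649 to 187 and 202 and from 537 and 677 to 7.82 and 28.8, whereas PMAIP1 (NOXA), also pro-death, read 1473 and 1410 against 2935 and 2359.

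Sterol and fatty acid synthesis genes were lower in 21 of 32 tested members and higher in 2, against 17.0% and 20.2% of all genes. Their median was -0.47 in the authors' deposited table. INSIG1, a sterol sensor partner, read 1706 and 1600 in the untransfected and 394 and 375 in the sample libraries, SREBF1, the lipogenic regulator gene, read 3791 and 3523 against 1137 and 1215, and the desaturase gene FADS2 read 14013 and 14920 against 4444 and 5361. FASN, the fatty acid synthase gene, read 14051 in sample a and 21551 in sample b around 16471 and 16937. Glycolysis genes went both ways, 10 of 30 higher and 8 lower in the authors' deposited table, against 20.2% and 17.0% of all genes. In limma-voom with total counts as library size, 8 were higher and 9 lower, against 18.2% and 30.7%. HK2, a hexokinase gene, read 377 and 406 against 2614 and 2668. Amino acid transporters were higher in 10 of 20 and lower in 3; SLC7A5, the large neutral amino acid carrier gene, read 6180 and 6445 against 14529 and 22865. Respiratory chain genes were called in 11 of 30, 5 higher and 6 lower, a share of 36.7% near the 37.3% of all genes. With total counts as library size 2 were higher and 13 lower, and 5 were called without untransfected library a and 5 without untransfected library b, against 12 in the limma-voom fit of all libraries.

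Interferon-stimulated genes were lower in 11 of 27 tested members and higher in 1, IFIT5, in the authors' deposited table. Their median was -0.68, and of all genes 17.0% were lower and 20.2% higher. IFIT1 read 309 and 329 in the untransfected and 34.4 and 8.24 in the sample libraries, and IFI6 read 557 and 574 against 250 and 239. SAMD9, an antiviral factor gene, read 875 and 890 against 225 and 226. STAT2, a signal carrier of interferon receptors, fell by 0.72 on the log2 scale, and ISG15, at -0.54, did not pass the test in the authors' deposited table. Nucleic acid sensor genes were called in 26.7% of tested members, under the 37.3% of all genes, with 3 of 15 higher (NLRP3, TLR4 and CGAS) and 1 lower. The lower gene, IFIH1, encodes the RNA sensor MDA5 and read 145 and 134 against 59.5 and 41.2. With total counts as library size, limma-voom called 3 sensor genes higher and 4 lower. Of 22 interferon-stimulated genes with a promoter in the table, 15 (68.18%) held the interferon response motif, against 2.70% of tested genes.

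Factors that VP16 contacts showed small changes. Of 33 Mediator subunits and VP16 contact factors, 10 were higher and none lower, against 20.2% and 17.0% of all genes. Their median was 0.25 in the authors' deposited table, and the called share of 30.3% lay under the 37.3% of all genes. In mock cells, given no VP16 plasmid, 19 of the 33 were higher than in untransfected cells and 2 lower, with a median of 0.29. Of all genes in that comparison, 4699 of 17087 were higher and 3993 lower. MED15 read 866 and 783 in the untransfected and 1367 and 2096 in the sample libraries, and GTF2H1, a TFIIH subunit gene, read 2061 and 2119 against 3557 and 3562. HCFC1, the cellular partner of VP16, read 1770 and 1771 against 2177 in sample a and 4661 in sample b, and POU2F1 (OCT1) read 1880 and 2048 against 1652 and 1812; neither passed the test. The limma-voom fit called 18 of the 33 higher and none lower, where it called 26.4% of all genes higher. The count of higher genes fell to 7 without untransfected library a and to 8 without untransfected library b, fits that called 37.4% and 37.1% of all genes. With total counts as library size 8 were higher and 2 lower, against 18.2% and 30.7% of all genes. Of 16 clock genes 6 were lower and 1 higher in the authors' deposited table, against 17.0% and 20.2% of all genes. The other 9 were not called, the called share was 43.8% beside 37.3% of all genes, and the median was -0.10. DBP read 472 and 543 against 31.3 and 20.6, TEF 1341 and 1531 against 292 and 210 and PER3 1111 and 1080 against 331 and 412. CLOCK, with 3113 and 3348 against 3078 and 3236, did not pass the test.

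Mock and sample values are compared with the same untransfected libraries, so their fold changes are not independent and are given side by side only. MYC read 4223 and 4897 in the mock libraries, CDKN1B 750 and 723, RRP12 7615 and 8411, IFIT1 40.4 and 31.5, and DRD1 68.1 and 23.2. Mock cells against untransfected cells gave 8692 of 17087 tested genes called (50.9%) in the authors' deposited table. In each of these 5 genes the mock and sample libraries lay on the same side of the untransfected libraries. Of all genes called in both comparisons, 0 went in opposite directions.

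Tested directly, sample and mock libraries differed in 10 of 15280 genes (0.0654%) and in both reporter entries in the authors' deposited table, with 297 genes at an unadjusted p under 0.05. HBB, a beta-globin gene, was the 1 gene called higher (0.00654%) in the sample libraries, at 103 and 61.8 against 11.3 and 3.71 in mock and 1.95 and 4.28 in untransfected cells. HBD, its near-identical neighbour, read 43.0 and 41.2 in the sample, 3.55 and 7.42 in the mock and 5.2 and 7.84 in the untransfected libraries. Both globin genes, whose reads can be shared between near copies, were high in the same libraries as the reporter; whether these counts hold reads from the transcribed reporter construct was not tested. The other 9 genes (0.0589%) were lower in the sample than in the mock libraries, and higher in both than in the untransfected. CXCL8 read 2128 and 2568 in the mock against 1304 and 869 in the sample libraries, ESM1 read 2268 and 2742 against 1179 and 815, and BCL2A1 read 463 and 645 against 283 and 198. MMP3, MMP9, DOCK4, TM4SF1 and KISS1 showed the same order, with the sample libraries between the other groups. The deposited fold changes of this contrast are strongly shrunk, for example -0.69 for CXCL8 in the authors' deposited table. The limma-voom fit called both reporter entries and 0 of 14890 genes (0.00%), with 653 of 14892 sequences at an unadjusted p under 0.05. It called 827 of 14916 genes (5.54%) without sample library a and 6 of 14945 (0.0401%) without sample library b, and none without mock library a or without mock library b. Each of these fits has 1 library in an arm, which is taken to vary like the other groups, so the 827 calls have no replicate check of their own.

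**Figure D4:**
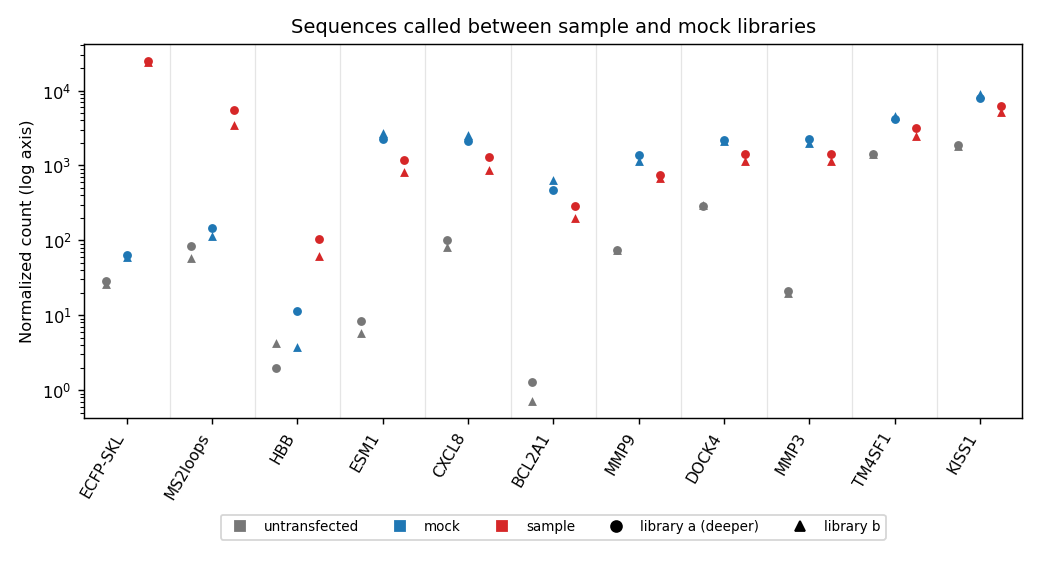
Normalized counts (log axis) of 11 of the 12 sequences called between sample and mock libraries, in each of the 6 libraries, with circles for the deeper and triangles for the other library of a group. The reporter entries and HBB are highest in the sample libraries, and in the other 8 genes plotted the sample libraries lie between the untransfected and the mock.

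Across promoters, the NF-kB motif was found in 4.74% of 549 genes called higher by a log2 of 1 or more with a promoter in the table, against 2.07% of tested genes and 1.15% of 867 genes called lower by as much. A variant with GGG and TTCCC 2 bases apart was in 2.73%, 2.63% and 2.54% of these genes. For AP-1 the shares were 9.29%, 3.25% and 4.15%, and for the E-box 16.03%, 9.93% and 5.88%. The interferon response motif was in 2.19% of the higher and 2.77% of the lower genes, against 2.70% of tested genes. The rest of the 10 motifs searched are given in the order higher, tested and lower. TEAD stood at 11.48%, 11.2% and 12.46%, and the octamer at 1.82%, 1.41% and 2.08%. Sterol response stood at 1.82%, 1.09% and 1.04%, and was in 1 of 26 sterol and fatty acid synthesis genes. Heat shock stood at 0.55%, 0.36% and 0.35%, and the VP16 target at 0.55%, 0.3% and 0.46%. These shares describe letters in a window of 300 bases, which need not be a bound site, and no test was run on them.

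**Figure D5:**
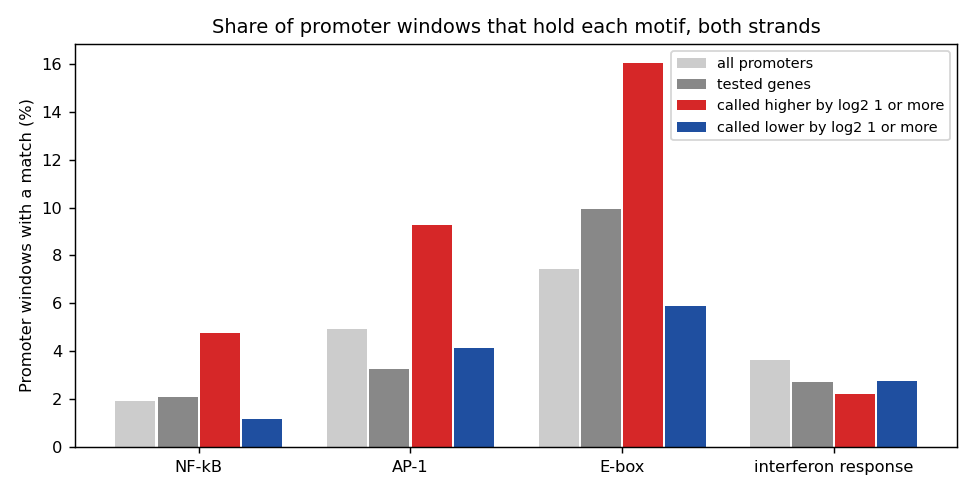
Bars give the percent of promoter windows (250 bases before to 50 after the RefSeq gene start) with at least 1 match on either strand, for all promoters, tested genes and genes called higher or lower by a log2 of 1 or more. The red bars of NF-kB, AP-1 and the E-box, at 4.74%, 9.29% and 16.03%, stand above the grey bars of tested genes, and that of the interferon response motif does not.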

How the data were processed

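Total RNA was extracted with NucleoSpin RNA Plus and made into strand-marked libraries with the NEBNext Ultra II Directional kit, per the labels' protocols. Per the submitters' processing notes, Bowtie, STAR, DESeq2 and the build hg38 were used; for roles, versions and annotation, details were not given in the sources used here. As deposited by the authors, 3 tables, one per pair of groups, hold mean normalized signal per RefSeq entry (baseMean), log2 fold change with its standard error, Wald score, p-value and adjusted p-value. The values fit shrunk fold changes. Entry names were matched to symbols for 99.2% of entries (39197 through the RefSeq table, 523 through GENCODE 29), and 307 entries without a symbol held 0.0666% of reads.

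Read counts of all 6 libraries were recovered as the whole numbers that give the deposited baseMean values of the 3 tables, for 30527 of 30527 entries with reads within a relative difference of 1e-14, and for 29919 of 29919 entries in simulated data. Counts were divided by median-of-ratios size factors. The replicate numbers of the labels could not be tied to recovered libraries. The main test is the Wald test that the authors ran with DESeq2, at an adjusted p under 0.05. limma-voom (limma 3.58.1, R 4.3.3) on recovered counts with a mean of at least 10 was the alternative and was tested on simulated data; "adjusted p" is Benjamini-Hochberg throughout. Nothing says that the 2 libraries of a group came from separate cultures, so p-values measure the spread between these libraries, which may be technical. Intervals cover counting error only.

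The members, the 38 gene lists and the tests were chosen with earlier results of these data known, and the E-box motif after these values were seen. Named were the 30 highest and 30 lowest called genes whose mean reached 200, from each list up to 5 called and 2 uncalled members by mean signal, genes called between sample and mock, the 10 called genes with the highest means and a few fixed genes such as MYC, HBB and HCFC1; other list members named in the text were chosen after their values were seen. KRTAP2-3, of a family of near copies, was left out. Promoter sequences are from RefSeq (GRCh38.p14), whose gene starts can differ from those of the deposited entries. Mitochondrially encoded genes were not analysed here, and some genes that the rule names are not reported here.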

Additional observations from a re-analysis of the deposited data

How the results depend on the processing

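The sample-against-untransfected count, 5803 with the reporter entries, stayed within 1.5 times of itself under every alternative run except one. Taking each gene's entry with the second highest mean, where there is one, gave 1824 calls, because fewer genes have a second entry. Leaving out 1 library at a time in limma-voom gave 5482 to 8196 calls. The sample-against-mock count of 12 was 6 at an adjusted p under 0.01, 2 with limma-voom, and 1 to 829 with 1 library left out, the highest without sample library a; the cause was not tested. COL1A1 and FASN, which did not pass the test, turned to -0.38 and -0.25 (log2) without sample library b and read 0.89 and 0.37 without sample library a, passing in opposite directions. With limma-voom, 288 of the named genes stayed on their side of the threshold and 17 passed newly. With 1 library left out, 22 lost their call without untransfected library a (among them MYH9, ENO1, PKM and CDK6), 15 without untransfected library b (among them SLC7A11, POLD1 and SDHA), 9 without sample library b (among them COL12A1, PKM, LDHA and CDK4) and 5 without sample library a (among them DUSP16, LRP5 and CRY2). Forward-strand matches alone gave shares of 2.37% for NF-kB and 4.01% for AP-1 among genes higher by a log2 of 1 or more and 27.27% for the interferon response motif in its gene list. No paired analysis was possible because the recovered libraries carry no replicate number. Library depth limits genes with low counts, of which 12.3% were called below a mean of 50.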

Other observations

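Among genes with several deposited entries, 4767 had 2 or more tested, and 2 of them had entries called in opposite directions between sample and untransfected libraries. PNKD had a short entry that read 785 and 743 in the untransfected and 498 and 482 in the sample libraries, while a longer entry at the 3' side of the locus (chr2:218323179-218346793) read 96.8 and 111 against 160 and 272. TXNRD2, the mitochondrial thioredoxin reductase gene, had an entry at 614 and 621 against 465 and 445 and a second at 3872 and 3745 against 5183 and 4562. The authors' deposited table lists log2 changes of -0.62 and 0.89 for the PNKD entries and -0.42 and 0.35 for those of TXNRD2.

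Tubulin genes were called in both directions. TUBB6 read 21593 and 21296 in the untransfected and 42165 and 40014 in the sample libraries, and TUBA1C read 8721 and 8892 against 15731 and 18237. TUBA1A read 6060 and 6423 against 1440 and 1672, and TUBB3 read 6445 and 6789 against 3868 and 4031. Of 11 tubulin genes, 2 were higher (against 20.2% of all genes) and 3 lower (against 17.0%) in the authors' deposited table, and 6 were not called; without sample library a the limma-voom fit called 8 of the 11. Epithelial markers were lower in 4 of 8 tested members and higher in 1, KRT18, with CLDN4 at 1424 and 1492 against 136 and 148 and KRT5 at 316 and 389 against 27.4 and 24.7. RUNX2, the osteoblast master regulator gene, read 379 and 414 against 93.1 and 132, and ALPL, the bone alkaline phosphatase gene, read 57.2 and 68.4 against 540 and 655.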
